A study of Mus musculus with 10 samples.

Results

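The genes described here were 10 genes of the neuronal cytoskeleton in single cells of the embryonic mouse cortex. They were the alpha tubulins Tuba1a and Tuba1b, the beta tubulins Tubb2a, Tubb2b, Tubb3 and Tubb5, the actins Actb and Actg1, and the microtubule-associated proteins Dcx (doublecortin) and Map1b. They were taken by name from the 31053 genes of the deposited count matrices, and all 10 were detected and tested. The cortex of each embryo was dissociated at E16.5 and gave 1 single-cell library. The embryos were 3 wild-type (WT) embryos, 4 Gatad2b stop/+ embryos (Het) and 3 Gatad2b stop/stop embryos (KO), all on a C57BL/6N-A tm1Brd background. The stop allele is a germline gene trap cassette in an intron of Gatad2b, a subunit of the NuRD chromatin remodelling complex, so every cell of a mutant embryo carried it. The question addressed was whether the transcripts of these genes differed with the dose of Gatad2b, in the cortex as a whole and in each class of cells.

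Microtubules are hollow polymers of alpha and beta tubulin dimers. Each tubulin is encoded by several genes whose proteins differ mainly at their tails, and these versions are called isotypes. Newborn neurons use microtubules to move the nucleus during migration and to build axons and dendrites. Tuba1a is the main alpha tubulin of postmitotic neurons, while Tuba1b is used widely, dividing cells included. Tubb3 is the classical neuronal beta tubulin, Tubb2a and Tubb2b are enriched in neurons, and Tubb5 is made by progenitors and neurons alike. Dcx stabilises microtubules in migrating neurons, and Map1b is an early microtubule-associated protein of growing axons. Actb and Actg1 encode the cytoplasmic actins present in nearly all cells, which form the cortex of the cell and the actin of growth cones. Mutations of several of these genes are known causes of malformations of the human cortex.

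In total, 65779 of 80071 barcodes had at least 1000 unique molecular identifiers (UMIs, each counting 1 captured RNA molecule) and at most 10% mitochondrial UMIs. Each embryo gave 5147 to 8103 such cells and 82872641 to 123737385 UMIs, with a median of 10795 to 17078 UMIs per cell. Pairs of libraries shared between 4 and 19 cell barcodes. Gatad2b itself was at 132 to 142 CPM (counts scaled to a common library total) in the WT libraries. The Het libraries held 88.1 to 96.6 CPM of it and the KO libraries 49.5 to 58.2. The deposited library names began with 1 of 2 prefixes, whose meaning is not given in the sources used here. All WT libraries and Het replicate 4 carried the first, while Het replicates 1, 2 and 3 and all KO libraries carried the second. In KO against WT the prefix and the genotype therefore cannot be told apart. For this reason the KO to WT values are set beside the comparison of KO with Het replicates 1 to 3 and that of Het replicate 4 with WT, each within 1 prefix. Nothing stated that same-numbered embryos came from 1 litter, and the p-values measured the spread between these embryos.

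Clusters of cells were named from marker genes, without using any cytoskeletal gene to form them. This gave 12 named classes, of which 11 had enough cells in every embryo to be tested. The largest were upper-layer-like excitatory neurons with 17355 cells, deep-layer-like excitatory neurons with 11476 and interneuron-like cells with 10166. The radial glia-like class, 2238 cells, was named with less certainty. It joined cluster 15, led by Fabp7, Mt3, Aldoc and Tnc, and the smaller cluster 21, led by Ttr, Tesc, Prox1 and Tac2 with 1 radial glia marker among its 10 leading genes. Cluster 15 had a higher score for oligodendrocyte precursor markers (3.75) than for radial glia markers (2.88), and 57.9% of its cells held a UMI of Mki67, a marker of proliferation. The values of Dcx, Tubb3, Tuba1b, Map1b and Tubb2a in this class are therefore also given by cluster. Other names were close calls too. Cluster 3 of the deep-layer-like class, 4781 cells, scored 0.87 for deep-layer and 0.73 for upper-layer markers, an order that turned when cytoskeletal genes were kept in the clustering. Cluster 23 of the interneuron-like class, 305 cells, scored 1.11 for upper-layer and 0.96 for interneuron markers, with Maf, Lhx6 and Nxph1 as leading genes. Another 8488 cells stayed unnamed and entered only the values over all cells. Their share of all cells moved with the library prefix. It was 15.2% to 16.0% in WT embryos and 15.4% in Het replicate 4. In Het replicates 1 to 3 it was 9.04% to 11.0%, and in KO embryos 10.1% to 12.6%. The sums of UMIs per embryo or per class cannot tell fewer expressing cells from less RNA per cell.

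All 10 genes lie on GRCm38, the build used for counting. The alpha tubulin genes are neighbours on the reverse strand of chromosome 15, Tuba1a (ENSMUSG00000072235) at chr15:98949837-98953703 and Tuba1b (ENSMUSG00000023004) at chr15:98931425-98934565. On chromosome 13, also on the reverse strand, are Tubb2a (ENSMUSG00000058672) at chr13:34074274-34078007, Tubb2b (ENSMUSG00000045136) at chr13:34126748-34130466 and Map1b (ENSMUSG00000052727) at chr13:99421446-99516540. Tubb3 (ENSMUSG00000062380) is on the forward strand at chr8:123411424-123422015 and overlaps the gene model Gm20388 on the same strand, so reads there may have been divided between the models or lost. Tubb5 (ENSMUSG00000001525) lies at chr17:35833921-35838306, Actb (ENSMUSG00000029580) at chr5:142903115-142906754, Actg1 (ENSMUSG00000062825) at chr11:120345690-120348542 and Dcx (ENSMUSG00000031285) at chrX:143855842-143933311, all on the reverse strand. Tuba1a and Tuba1b also overlap the model Gm49450 on the same strand, Actg1 overlaps Gm23419 and Mir6935, and Map1b overlaps 5330431K02Rik.

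The coding sequences of the paired tubulins are nearly identical and those of the actins less so, which bears on how well a read can be assigned to either. Tuba1a and Tuba1b differ at 23 of 1356 coding bases (98.3% identity), Tubb2a and Tubb2b at 47 of 1338 bases, and Actb and Actg1 at 128 of 1128 bases. Their 3′ untranslated regions, where 3′ libraries place most reads, share no run longer than 6 bases for the alpha tubulins, 10 for Tubb2a and Tubb2b and 11 for the actins. The sequences that follow are the last 60 coding bases of Tubb2a and Tubb2b, which encode the tail of the protein, and the first 60 of the actins. They are shown 5′ to 3′ on the reverse strand of GRCm38, and capitals mark the bases that differ within a pair.
Tubb2a, chr13:34074468-34074527: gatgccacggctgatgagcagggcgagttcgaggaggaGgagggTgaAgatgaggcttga
Tubb2b, chr13:34127471-34127530: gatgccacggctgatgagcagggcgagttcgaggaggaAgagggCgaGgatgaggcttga
Actb, chr5:142905627-142905686: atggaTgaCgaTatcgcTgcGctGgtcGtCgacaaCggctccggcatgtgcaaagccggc
Actg1, chr11:120348032-120348091: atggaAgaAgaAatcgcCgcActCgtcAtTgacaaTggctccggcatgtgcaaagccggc
The Tubb2a and Tubb2b pair differs at 3 bases of its stretch and the actin pair at 9. The 3 differences between Tubb2a and Tubb2b leave the encoded amino acids of this stretch the same. The longest run of coding bases shared within a pair was 281 for the alpha tubulins, 551 for Tubb2a and Tubb2b and 62 for the actins. Reads that lie wholly inside a shared run cannot be assigned with certainty, so values of the minor member of a pair, Tuba1b and Tubb2a, were taken as less certain than those of Tuba1a and Tubb2b.

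RefSeq promoter windows of GRCm38.p6 were matched for 8 of the 10 genes, and the 2 shown are those of Actg1 and Tubb5, both of which differed between the library prefixes without overlap. Capitals mark matches, on either strand, to 4 motifs, which were the CArG box (CC, any 6 of A or T, GG), bound by serum response factor, the CCAAT box, TATAAA and the GC box GGGCGG. Both genes are on the reverse strand, and only bases outside the annotated gene are shown.
Actg1, chr11:120348543-120348745: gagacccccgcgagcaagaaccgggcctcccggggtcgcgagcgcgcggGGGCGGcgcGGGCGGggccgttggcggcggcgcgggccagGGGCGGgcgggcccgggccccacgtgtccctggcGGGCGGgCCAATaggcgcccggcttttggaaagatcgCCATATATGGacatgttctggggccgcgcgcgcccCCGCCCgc
Tubb5, chr17:35838307-35838551: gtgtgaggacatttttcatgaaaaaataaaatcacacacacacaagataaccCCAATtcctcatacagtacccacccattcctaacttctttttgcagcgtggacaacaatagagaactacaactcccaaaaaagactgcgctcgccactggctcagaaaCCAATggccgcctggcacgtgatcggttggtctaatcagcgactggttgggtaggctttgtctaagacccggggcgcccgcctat
The Actg1 stretch held 1 CArG box, 1 CCAAT box and 5 GC boxes, and the Tubb5 stretch 2 CCAAT boxes. In the 250 bases before the start, a CArG box was present in 1 of the 8 member genes and in 1.47% of 32851 promoters. A CCAAT box was present in 5 of the 8 (Actg1, Dcx, Tuba1a, Tubb3 and Tubb5) and in 33.9% of all promoters. GC boxes were found in 6 of the 8 and in 32.7% of promoters, and TATAAA in 3 of the 8 (Dcx, Map1b and Tubb2a) and in 12.4%. A match is a description of the letters only.

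In WT embryos 7 of these genes ranked among the 71 most abundant transcripts of the cortex. Because 3′ counting gives about 1 UMI per captured molecule, CPM were compared between genes without division by length. Over all cells, and before TMM scaling, Tuba1a ranked 6 of all genes at 6460 CPM, Actb ranked 12 at 4894 and Tubb2b ranked 16 at 4512. Tubb5 ranked 23, Map1b 26, Actg1 33 and Tubb3 71. Dcx ranked 180 at 777 CPM, Tubb2a 231 at 588 and Tuba1b 688 at 227. Together the 10 genes took 2.70% to 2.83% of all UMIs in WT embryos, 2.70% in Het replicate 4, 2.91% to 3.09% in Het replicates 1 to 3 and 2.89% to 3.05% in KO embryos.

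**Figure D1:**
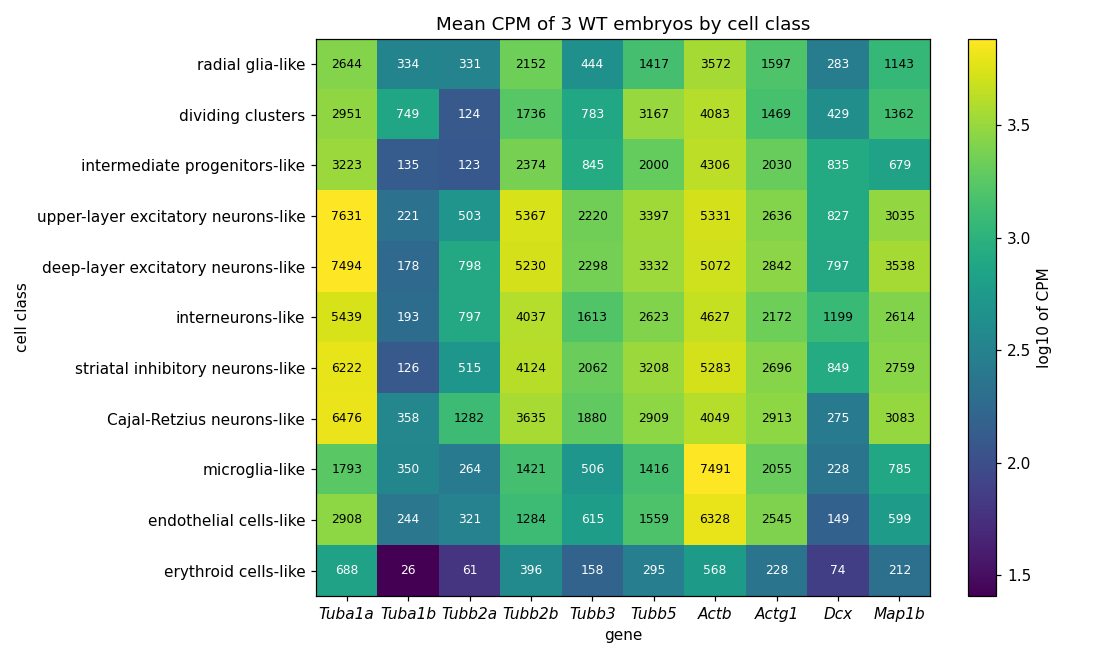
Mean level of each of the 10 genes (columns) in each tested cell class (rows) of the 3 WT embryos, with the CPM printed in each cell and its log10 as the colour. Tuba1a, Tubb2b and Tubb3 are highest in the excitatory neuron-like classes, Tuba1b in the dividing clusters, Actb in microglia-like cells and Dcx in interneuron-like cells.

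The alpha tubulins were highest in different classes. In WT embryos Tuba1a was at 7631 ± 503 CPM (SD, n = 3 embryos, as for all WT levels here) in upper-layer-like neurons and at 7494 ± 377 in deep-layer-like neurons, with overlapping ranges. It was at 5439 ± 249 in interneuron-like cells, at 2951 in the dividing clusters and at 2644 ± 392 in radial glia-like cells. Tuba1b, the widely used alpha tubulin, was highest in the dividing clusters at 749 ± 75.9 CPM, and reached 334 in radial glia-like cells but only 221 in upper-layer-like and 178 in deep-layer-like neurons. Cajal-Retzius-like neurons were high in both, at 6476 CPM of Tuba1a and 358 of Tuba1b. Intermediate progenitor-like cells had 3223 CPM of Tuba1a, below all neuron-like classes, and 135 of Tuba1b.

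The beta tubulins differed in which neurons expressed them most. Tubb3 was at 2298 ± 128 CPM in deep-layer-like and 2220 ± 88.1 in upper-layer-like neurons, which overlapped, at 1613 in interneuron-like cells and at 845 in intermediate progenitor-like cells. Radial glia-like cells had 444 CPM of Tubb3. Tubb2b was at 5367 ± 168 CPM in upper-layer-like and 5230 in deep-layer-like neurons. Tubb2a was highest in Cajal-Retzius-like neurons, the earliest-born neurons of the cortical surface, at 1282 ± 36.7 CPM, followed by deep-layer-like neurons at 798 and interneuron-like cells at 797, and it was only 123 in intermediate progenitor-like cells. Tubb5 varied less between neurons and cycling cells, at 3397 CPM in upper-layer-like neurons and 3167 ± 191 in the dividing clusters, with 1417 in radial glia-like cells.

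Among the actins and the microtubule-associated proteins, the highest class was a different one for each gene. Actb was highest in microglia-like cells at 7491 ± 566 CPM and endothelial-like cells at 6328 ± 1119, against 5331 in upper-layer-like neurons and 3572 in radial glia-like cells. Actg1 was at 2913 CPM in Cajal-Retzius-like and 2842 in deep-layer-like neurons. Dcx was at 1199 ± 71.4 CPM in interneuron-like cells, above the range of the next class, striatal inhibitory-like neurons at 849. It was at 835 in intermediate progenitor-like cells, 827 in upper-layer-like neurons and 283 in radial glia-like cells. Cajal-Retzius-like neurons, with 275 CPM, were the neurons with the least Dcx. Map1b was highest in deep-layer-like neurons at 3538 ± 9.42 CPM and was at 1143 in radial glia-like cells and 679 in intermediate progenitor-like cells.

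Erythroid-like cells, which have little use for neuronal tubulin, served as the level of free RNA in the droplets. They held 688 CPM of Tuba1a, 158 of Tubb3, 74.2 of Dcx and 212 of Map1b in WT embryos, and 568 CPM of Actb. At least 1 Dcx UMI was found in 95.9% of interneuron-like cells (median of 7933 UMIs per cell), in 65% of radial glia-like cells (median of 18525) and in 31.7% of erythroid-like cells (median of 9230). For Tubb3 these shares were 99.9% in upper-layer-like neurons (median of 16409), 78.2% in radial glia-like and 58.0% in erythroid-like cells. Tuba1b was detected in 97.1% of cells of the dividing clusters (median of 17357) and 15.3% of erythroid-like cells. The levels rather than these shares are compared from here on.

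Across the 12 named classes of WT embryos, each gene had close matches in pattern among 9289 genes. The measure was Pearson's r of log2(CPM + 1) across classes, given as a description because the classes share libraries. Tubb3 was most like Cacnb3 (r = 0.987), Tuba1a (0.983) and Dpysl3 (0.978), and Tuba1a most like BC051226 (0.990), Tubb3 and Cacnb3 (0.980). Tubb2b followed Rab33a (0.987), Crmp1 (0.985) and Dpysl3 (0.984), and Map1b followed Dpysl3 and Jakmip2 (0.979). Dcx was most like Nsg2 (0.984), D430019H16Rik (0.973) and Celf3 (0.970). Tubb2a was most like Dnm3 (0.985), Olfm2 (0.970) and Eef1a2 (0.962), Tubb5 most like Cript (0.977), Stmn1 (0.975) and Tsg101 (0.975), and Tuba1b most like Selenoh (0.957), Lsm2 (0.954) and Arl6ip1 (0.952). Actb was closest to Gak (0.989), Ptpn1 (0.988) and Rpl10 (0.985), and Actg1 to Trappc3 (0.992), Mark4 (0.990) and Vps28 (0.987).

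Over all cells, KO and WT cortices differed in Actb, Tuba1b and Tubb3. Actb and Tuba1b were higher and Tubb3 was lower in KO embryos, and the differences followed the library prefix. UMI counts were summed per embryo and all genes were tested together with edgeR's quasi-likelihood test. A gene was called at a Benjamini-Hochberg adjusted p under 0.05 and a log2 fold change beyond 0.25. Levels per embryo are CPM scaled by edgeR's TMM factors. In KO against WT, 3 of the 10 genes were called, 2 higher and 1 lower, where 24.5% of all tested genes were called.

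Actb was at 4615, 4755 and 5030 CPM in WT replicates 1 to 3 and at 6372, 6614 and 6222 in KO replicates 1 to 3. In Het replicates 1 to 4 it was at 6179, 6273, 6737 and 4788. The 3 Het embryos with the KO prefix overlapped the KO range, and Het replicate 4 lay inside the WT range. The KO to WT difference was 0.42 on the log2 scale (SE 0.097, edgeR adjusted p = 0.0070). Within 1 prefix Actb differed by 0.00 between KO and Het replicates 1 to 3 (SE 0.051, edgeR adjusted p = 0.99), and by -0.00 between Het replicate 4 and WT. Het replicate 3, the highest in Actb, had 6.43% endothelial-like cells, against 0.392% to 0.922% in the other embryos. The part of this cell mix in the Actb values was not tested.

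Tubb3 was at 1788, 1909 and 1874 CPM in WT, at 1521, 1655, 1669 and 1821 in Het, and at 1517, 1549 and 1433 in KO embryos. Again Het replicate 4 fell in the WT range and the other Het embryos fell below it. The KO to WT log2 difference was -0.31 (SE 0.061, edgeR adjusted p = 0.0029). Within 1 prefix the KO to Het difference was -0.11 (SE 0.052, edgeR adjusted p = 0.26), with overlapping ranges. With 9 classes given equal weight the KO to WT difference was -0.31 and not called (limma adjusted p = 0.092).

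Tuba1b was at 215, 248 and 207 CPM in WT, at 265, 272, 288 and 208 in Het, and at 266, 313 and 257 in KO embryos. The KO to WT log2 difference was 0.32 (SE 0.115, edgeR adjusted p = 0.047), and within 1 prefix KO and Het differed by 0.02. The Tuba1b call was lost without WT replicate 1 or 3, Het replicate 1 or 2 or any KO replicate, at 0.23 to 0.37. Dividing-cell genes, a list of 15, summed to 481 to 578 CPM in WT and 657 to 701 in KO embryos, and 679 in Het replicate 4, where Tuba1b was in the WT range. The part of cell division in the Tuba1b difference was not tested.

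Actg1, Dcx and Tubb5 passed the adjusted p but not the fold. Actg1 was 0.22 higher in KO than in WT on the log2 scale (edgeR adjusted p = 0.0070), Dcx 0.18 (edgeR adjusted p = 0.010) and Tubb5 0.18 (edgeR adjusted p = 0.030). Dcx was at 767, 775 and 746 CPM in WT and 846, 864 and 875 in KO embryos, with Het replicates 1 to 3 at 818, 844 and 849 and Het replicate 4 at 772. Tuba1a (0.15), Map1b (-0.07), Tubb2a (-0.07) and Tubb2b (-0.05) missed the adjusted p, at values from 0.19 for Tuba1a to 0.64 for Tubb2a. The most abundant tubulins, Tuba1a and Tubb2b, were at 6339 ± 381 (SD, n = 3) and 4426 ± 103 CPM in WT and at 7051 ± 540 and 4281 ± 240.3 in KO embryos, with overlapping ranges.

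**Figure D2:**
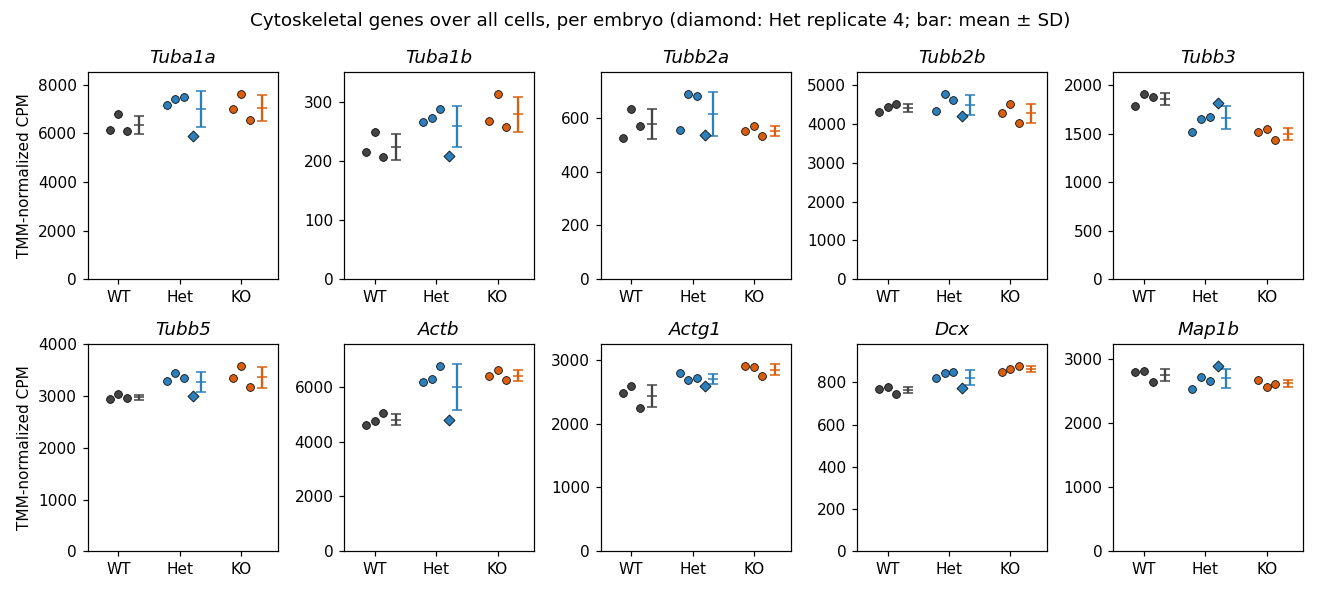
Level of each of the 10 genes over all cells in each embryo, as TMM-scaled CPM on a linear axis, by genotype, with a diamond for Het replicate 4 and a bar for the group mean ± SD. For Actb, Tubb3, Tubb5, Tuba1b and Dcx, Het replicate 4 lies with the WT embryos and apart from the other 3 Het embryos.

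Neither comparison with Het embryos called any of the 10 genes over all cells. In Het against WT 0 of 10 were called, against 2.98% of all genes. The log2 differences were 0.32 for Actb (edgeR adjusted p = 0.064), 0.21 for Tuba1b (edgeR adjusted p = 0.23) and -0.16 for Tubb3 (edgeR adjusted p = 0.11), and lay between -0.03 and 0.15 for the other genes. At an unadjusted p under 0.05 there were 5 genes, Actb, Actg1, Tubb3, Dcx and Tubb5, and the Wald test of DESeq2 called 1, Actb. Without Het replicate 4, Actb (0.41) and Tuba1b (0.30) were called. In KO against Het edgeR and DESeq2 each called 0 of 10, against 5.5% of all genes by edgeR, with 1 gene, Tubb3, at an unadjusted p under 0.05. Within 1 prefix, edgeR called 0 of 10 in KO against Het replicates 1 to 3, against 6.14%, with 1 gene, Tubb2a, at an unadjusted p under 0.05, and 0 in Het replicate 4 against WT, against 0.0109%, with 0 genes at an unadjusted p under 0.05. In the last fit the lone embryo is assumed to vary like the others.

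When embryos were divided by prefix alone, 6 of the 10 genes did not overlap between the sets, where 23.4% of all genes did not. These 6 were Tuba1b, Tubb5, Actb, Actg1 and Dcx, higher in the set with the KO embryos, and Tubb3, lower there. KO and Het replicates 1 to 3, which share a prefix, overlapped for all 10 genes, while 27.9% of all genes did not overlap. With the prefix as a term in the fit, 0 of the 10 genes were called in KO against WT by edgeR, where 8.31% of all genes were, with 0 of the 10 at an unadjusted p under 0.05, and the Actb difference was -0.00. That prefix term rests on Het replicate 4 against Het replicates 1 to 3 alone, since the WT and the KO libraries each carried 1 prefix. A list of 20 immediate early and dissociation response genes moved with the prefix too, at 2186 to 2317 summed CPM in WT, 2302 in Het replicate 4, 2707 to 2752 in Het replicates 1 to 3 and 2778 to 2953 in KO embryos. The median share of mitochondrial UMIs per cell moved with it as well, at 3.72% to 3.97% in WT and 3.60% in Het replicate 4 against 4.34% to 4.66% in Het replicates 1 to 3 and 4.31% to 4.58% in KO embryos. The part of either in the values of the 10 genes, and what the prefix stands for, was not tested.

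**Figure D3:**
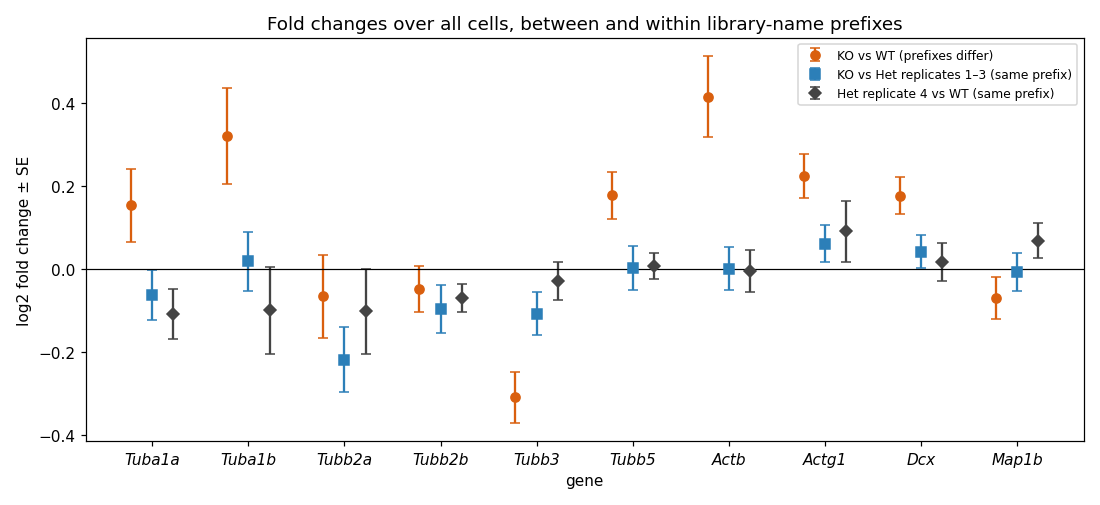
Log2 fold change of each of the 10 genes over all cells, with bars of 1 SE, in KO against WT, which differ in library prefix, and in KO against Het replicates 1 to 3 and Het replicate 4 against WT, each within 1 prefix. Actb is at 0.42 in KO against WT and at 0.00 in KO against Het replicates 1 to 3, and Tubb3 is at -0.31 and -0.11 in these comparisons.

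The balance of isotypes was compared as the share of each gene in the UMIs of its family, which does not depend on library scaling. Tubb3 made up 18.2%, 18.5% and 18.4% of beta tubulin UMIs in WT embryos and 15.1%, 14.7% and 15.1% in KO embryos. It made up 15.3%, 15.2% and 15.8% in Het replicates 1 to 3 and 18.5% in Het replicate 4, which was outside the range of its own group and inside that of WT. All KO embryos lay below all Het embryos, those of their prefix included. The KO mean was 1.19 points below the mean of all Het embryos, Het replicate 4 included (exact two-sided permutation test, p = 0.143). Within 1 prefix the gap was smaller, with means of 14.99% in KO and 15.41% in Het replicates 1 to 3. The KO mean was 3.38 percentage points below the WT mean with no overlap, and the smallest p an exact permutation test can give with 3 against 3 embryos is 0.1. Tubb5, the beta tubulin of progenitors and neurons, made up 29.0% to 29.9% in WT and 33.34% to 33.96% in KO embryos. All KO embryos lay above all 4 Het embryos, at 30.4% to 32.9%, the 3 with the KO prefix included (exact two-sided permutation test, p = 0.0571, where the smallest value possible with 3 and 4 embryos is 0.0286).

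Tuba1a made up 96.3% to 96.6% of alpha tubulin UMIs in WT and 95.8% to 96.1% in KO embryos, a drop of 0.505 points. Its share in Het embryos was 96.2% to 96.4%, above every KO embryo, also those of the KO prefix (exact two-sided permutation test, p = 0.0286). Actb made up 64.8% to 69.1% of the UMIs of both actins in WT and 68.8% to 69.6% in KO embryos, which overlapped. Over the 12 tests of 4 shares and 3 comparisons, no Benjamini-Hochberg adjusted p was below 0.171.

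The lower Tubb3 share was present in most classes. In upper-layer-like neurons it was 18.7% to 19.2% in WT, 15.9% to 16.4% in Het replicates 1 to 3, 19.2% in Het replicate 4 and 15.1% to 15.9% in KO embryos. In interneuron-like cells it was 17.2% to 17.6% in WT, 14.6% to 15.0% in Het replicates 1 to 3, 17.8% in Het replicate 4 and 15.1% to 15.5% in KO embryos, so that KO embryos lay above the Het embryos of their prefix. In radial glia-like cells it was 8.99% to 9.97% in WT, 5.83% to 6.89% in Het replicates 1 to 3, 8.19% in Het replicate 4 and 5.49% to 6.96% in KO embryos. KO embryos overlapped the Het embryos of their prefix, and Het replicate 4 lay below every WT embryo. Intermediate progenitor-like cells had 15.4% to 15.6% in WT, 13.4% to 13.6% in Het replicates 1 to 3, 16.6% in Het replicate 4 and 14.6% to 15.8% in KO embryos. There KO embryos overlapped WT and, as in interneuron-like cells, lay above the Het embryos of their prefix.

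Tests within the 11 classes gave 110 pairs of gene and class. In KO against WT 28 pairs were called, 16 higher and 12 lower, where 15.1% of all gene and class pairs were called. With library size in place of TMM scaling 35 pairs were called, 12 higher and 23 lower. Of the lower ones 10 were in erythroid-like cells, where this scaling moved the median of all genes to -1.56 on the log2 scale. The share of all genes called ranged from 31.0% in upper-layer-like neurons, 25% in radial glia-like cells and 24.1% in deep-layer-like neurons to 16.7% in striatal inhibitory-like neurons, 16.0% in intermediate progenitor-like cells, 8.47% in the dividing clusters, 8.15% in interneuron-like cells, 5.48% in Cajal-Retzius-like neurons and 1.52% in microglia-like cells. The count was 14 without KO replicate 2 and 15 without KO replicate 3 or WT replicate 3. With TMM scaling Actb was higher in all 11 classes (log2 0.19 to 0.80) and was called in 7. These were the upper-layer-like, deep-layer-like, striatal inhibitory-like, Cajal-Retzius-like, interneuron-like, microglia-like and radial glia-like classes. In erythroid-like cells the direction of Actb turned with library size only, where all 10 genes were called lower. In upper-layer-like neurons it was at 5050, 5184 and 5467 CPM in WT, at 6800, 6851, 6886 and 5528 in Het and at 7407, 7473 and 7243 in KO embryos, a KO to WT difference of 0.49 (SE 0.069, edgeR adjusted p = 6.4e-05). The Het embryo with the WT prefix was just above the WT range and the other 3 were far above it. Within 1 prefix, Actb was higher in KO than in Het replicates 1 to 3 in 6 of 11 classes, with a median difference of 0.01. In upper-layer-like neurons every KO embryo lay above every Het embryo, by 0.11 within 1 prefix (edgeR adjusted p = 0.11). The same order held in cluster 0 of that class (0.07, edgeR adjusted p = 0.24) and in cluster 1, where KO embryos were at 7220 to 7286 CPM and Het replicates 1 to 3 at 6284 to 6434 (0.19, edgeR adjusted p = 0.0076, short of the fold).

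Tubb3 was called lower in KO than in WT in deep-layer-like neurons (-0.32), upper-layer-like neurons (-0.34, SE 0.056, edgeR adjusted p = 0.00024), radial glia-like cells (-0.63) and microglia-like cells (-3.11). In upper-layer-like neurons it was at 2081, 2255 and 2202 CPM in WT, 1810, 1959, 1959 and 2129 in Het, and 1761, 1740 and 1664 in KO embryos. All KO embryos lay below all Het embryos there, but its clusters differed in Tubb3 and in their share of the class, which moved with genotype. In cluster 0 Tubb3 was at 2377 to 2494 CPM in WT, 2187 to 2285 in Het replicates 1 to 3 and 2021 to 2082 in KO embryos, and in cluster 1 at 1498 to 1673, 1312 to 1412 and 1349 to 1430. KO embryos thus lay below the Het embryos of their prefix in cluster 0 (-0.13, edgeR adjusted p = 0.036) and overlapped them in cluster 1 (0.03, edgeR adjusted p = 0.80). In the radial glia-like class Tubb3 was at 194 to 234 CPM in WT and 127 to 172 in KO embryos in cluster 15 (-0.53, edgeR adjusted p = 0.053). That is near the 158 CPM of Tubb3 in WT erythroid-like cells, a value before TMM scaling. In erythroid-like cells of a mutant embryo Tubb3 went as low as 27.35 CPM, so the WT value may not hold for KO embryos. In cluster 21, which made up less of the class in KO embryos, it was at 621 to 991 in WT and 772 to 1103 in KO embryos (0.10, edgeR adjusted p = 0.83). Tuba1b was called higher in radial glia-like cells (0.65), the dividing clusters (0.37) and striatal inhibitory-like neurons (0.48). In radial glia-like cells Tuba1b was at 343, 365 and 291 CPM in WT, at 451, 407, 465 and 343 in Het and at 536, 564 and 464 in KO embryos, and KO and Het embryos overlapped by 1 embryo. Its KO to WT difference was 0.47 within cluster 15 (edgeR adjusted p = 0.011) and 0.26 within cluster 21 (edgeR adjusted p = 0.51). Actg1 was called higher in upper-layer-like neurons (0.28) and interneuron-like cells (0.26), and Tubb5 in Cajal-Retzius-like neurons (0.29) and interneuron-like cells (0.28). Tuba1a was called higher in interneuron-like cells (0.36). Tubb2a was called lower in intermediate progenitor-like cells (-0.59), radial glia-like cells (-0.39) and upper-layer-like neurons (-0.32), and Dcx was called higher in Cajal-Retzius-like neurons (0.45) and lower in radial glia-like cells (-0.61).

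In Het against WT 3 pairs were called, against 1.71% of all pairs. They were Actb in upper-layer-like neurons (0.32, in a class with 7.11% of all genes called) and in striatal inhibitory-like neurons (0.31, 2.3% of all genes), and Tubb3 in radial glia-like cells (-0.58, 2.52% of all genes). Without Het replicate 4 the count was 13, and without Het replicate 1, 2 or 3, KO replicate 3 or WT replicate 2 or 3 it was 1. In Het replicate 4 against WT within 1 prefix edgeR called 0 of 110, against 0.344% of all pairs, with 22 pairs at an unadjusted p under 0.05.

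**Figure D4:**
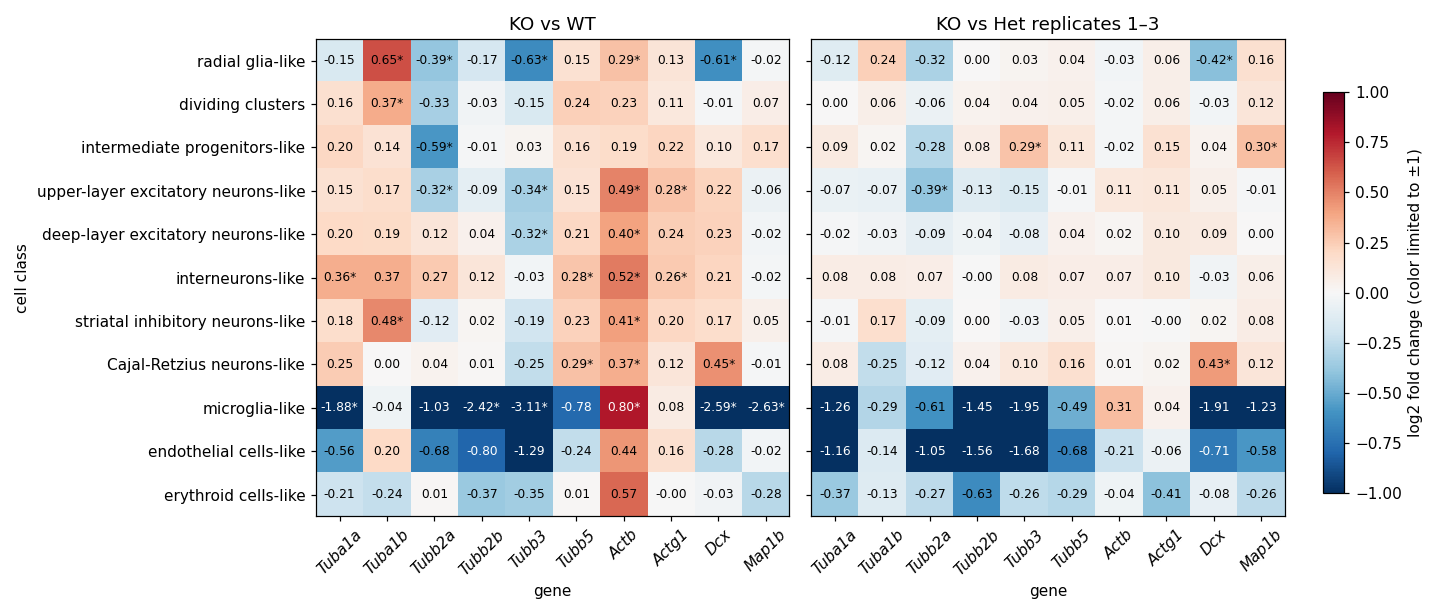
Log2 fold change of each of the 10 genes in each tested cell class, with the value printed in each cell, called pairs starred and colour limited to ±1, in KO against WT (left) and in KO against Het replicates 1 to 3 within 1 library prefix (right). Of 110 pairs 28 are called in the first and 5 in the second.

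Within 1 prefix, 5 of the 110 pairs were called between KO and Het replicates 1 to 3, against 4.18% of all pairs. They involved Dcx, Tubb2a, Tubb3 and Map1b. Dcx was higher in KO Cajal-Retzius-like neurons, at 303, 425 and 405 CPM against 284, 273 and 284 in Het replicates 1 to 3, 262 in Het replicate 4 and 257, 296 and 271 in WT. Every KO embryo lay above every other embryo, and the log2 difference was 0.43 (SE 0.099, edgeR adjusted p = 0.043), in a class where 1.14% of all genes were called. This class was small, with as few as 48 cells in an embryo. The upper- and deep-layer neuron markers in it summed to 860, 994 and 1085 CPM in KO, 800, 758 and 771 in Het replicates 1 to 3, 886 in Het replicate 4 and 784, 981 and 798 in WT embryos. Their part in the Dcx difference was not tested.

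Tubb3 and Map1b were higher in KO intermediate progenitor-like cells than in Het cells of the same prefix. Tubb3 was at 815, 869 and 854 CPM in KO and at 659, 719 and 700 in Het replicates 1 to 3, a difference of 0.29 (SE 0.055, edgeR adjusted p = 0.0061), while WT embryos were at 811, 839 and 841 and Het replicate 4 at 861. In this class 3.15% of all genes were called. KO thus overlapped WT, and the Het embryos of the second prefix were low. Map1b was at 781, 686 and 777 CPM in KO and at 549, 623 and 653 in Het replicates 1 to 3, a difference of 0.30 (SE 0.069, edgeR adjusted p = 0.023), with WT at 721, 702 and 577 and Het replicate 4 at 798.

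Tubb2a was lower in KO upper-layer-like neurons, at 395, 427 and 363 CPM against 452, 557 and 545 in Het replicates 1 to 3, a difference of -0.39 (SE 0.073, edgeR adjusted p = 0.0017), where 12.7% of all genes were called. WT embryos were at 450, 546 and 487 and Het replicate 4 at 411, so the KO range was below WT and reached Het replicate 4. The class joined clusters with different Tubb2a levels, and cluster 0, the one with more Tubb2a, made up 57.5% to 62.2% of the class in WT and 37.1% to 44.2% in KO embryos, with the Het embryos between them at 49.3% to 54.8%. Within cluster 0 the KO to Het difference, on 1 prefix, was -0.22 (edgeR adjusted p = 0.011) and within cluster 1 it was -0.23 (edgeR adjusted p = 0.038), both short of the 0.25 needed for a call. Against WT the clusters differed. In cluster 0 KO embryos, at 594 to 641 CPM, lay inside the WT range of 578 to 673. In cluster 1 KO embryos, at 165 to 191 CPM, lay below WT at 195 to 233. In KO against Het with all 4 Het embryos, 2 pairs were called, against 3.5% of all pairs, and they were Tubb2a in upper-layer-like neurons (-0.31, in a class with 11.8% of all genes called) and Dcx in Cajal-Retzius-like neurons (0.45, 0.959% of all genes). The Tubb2a call there was lost without WT replicate 3, Het replicate 2 or 3 or KO replicate 1 or 3, at -0.32 to -0.25, and the Dcx call without KO replicate 2 (0.36) or 3 (0.39).

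Dcx in radial glia-like cells was at 236, 285 and 320 CPM in WT, at 237, 282, 218 and 219 in Het and at 169, 182 and 201 in KO embryos. All KO embryos lay below all others, with a log2 difference of -0.61 from WT and of -0.42 from Het replicates 1 to 3 (SE 0.096, edgeR adjusted p = 0.021), where 5.87% of all genes were called. Its clusters differed in level, since in cluster 15 Dcx was 56.6 to 135 CPM and in cluster 21 it was 430 to 674 CPM. Cluster 21 made up 33.6% to 43.2% of the class in WT and 27.6% to 38.6% in Het embryos, but 13.8% to 18.9% in KO embryos. Within cluster 15 the KO to Het difference in Dcx, on 1 prefix, was -0.02 (edgeR adjusted p = 0.98), and within cluster 21 it was 0.08 (edgeR adjusted p = 0.88). The KO to Het difference of the class was thus not seen within either cluster. Against WT, Dcx was -0.51 in cluster 15 (edgeR adjusted p = 0.039), where 19.7% of all genes were called. It was at 119 to 135 CPM there in WT and 56.6 to 108 in KO embryos. These levels are near the 74.2 CPM of Dcx in WT erythroid-like cells, a value before TMM scaling. That value was 53.22 to 97.79 CPM over the WT embryos but went as low as 10.91 in a mutant embryo. The WT value may therefore not hold for KO embryos.

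**Figure D5:**
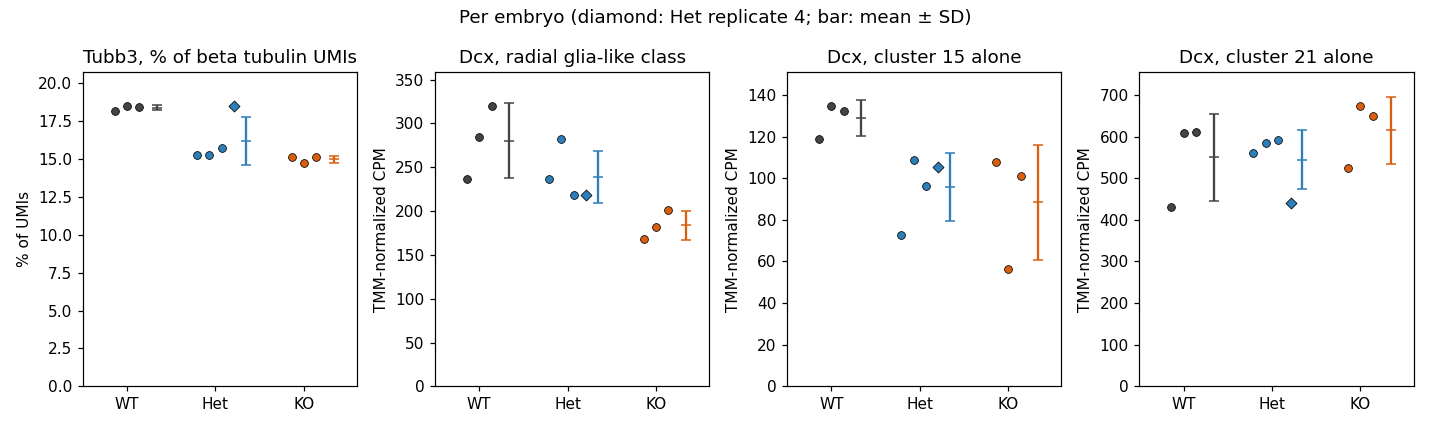
From left to right, the share of Tubb3 in beta tubulin UMIs over all cells in percent, and Dcx as TMM-scaled CPM in radial glia-like cells, in cluster 15 and in cluster 21, with a point for each embryo by genotype, a diamond for Het replicate 4 and a bar for the group mean ± SD. Het replicate 4 lies with WT for the Tubb3 share at 18.5%, and KO embryos are lowest for Dcx in the class but overlap Het embryos within both clusters.

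In cluster 15, the cluster with radial glia, oligodendrocyte precursor and proliferation markers, Map1b and Tubb2a differed within 1 prefix, where 2.56% of all genes were called. Map1b was at 834, 980 and 984 CPM in KO and at 668, 549 and 559 in Het replicates 1 to 3 (log2 0.65, SE 0.085, edgeR adjusted p = 0.00039). WT embryos were at 752, 644 and 666 and Het replicate 4 at 864, which lay within the KO range. Tubb2a was at 247, 239 and 240 CPM in KO and at 287, 337 and 356 in Het replicates 1 to 3 (log2 -0.43, SE 0.082, edgeR adjusted p = 0.0082). WT embryos were at 361, 379 and 400, so KO embryos were lowest of all, with Het replicate 4 at 269 next. In cluster 21 the KO and Het ranges of both genes overlapped. Tubb2a was there at 296, 393 and 196 CPM in KO, 229, 319 and 309 in Het replicates 1 to 3 and 203, 312 and 249 in WT embryos (log2 0.02 within 1 prefix, edgeR adjusted p = 0.99). Map1b was at 1754 to 2319 CPM in KO and 1733 to 2181 in Het replicates 1 to 3 (log2 0.04, edgeR adjusted p = 0.96). These fits by cluster were chosen after the class values were seen.

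Whether a genotype difference was larger in 1 class than in another was tested against upper-layer-like neurons. In that class and in radial glia-like cells the mix of clusters moved with genotype, and its part in these values was not tested. For KO against Het replicates 1 to 3, Tubb3 (0.45, SE 0.039, edgeR adjusted p = 6.6e-07), Map1b (0.32, SE 0.041, edgeR adjusted p = 5e-05) and 4 more of the 10 genes had another difference in intermediate progenitor-like cells, where 3.64% of all genes did. In radial glia-like cells 3 of the 10 did, against 6.81% of all genes, led by Dcx (-0.46), and in interneuron-like cells 2 did, against 2.86%, with Tubb2a at 0.46. In Cajal-Retzius-like neurons Dcx (0.36) and Tubb3 (0.25) did, against 2.22%. For KO against WT 4 of the 10 genes had another difference in radial glia-like cells, against 18.2% of all genes, 4 in intermediate progenitor-like cells, against 9.33%, and 5 in interneuron-like cells, against 6.9%. For Het against WT only Actb in intermediate progenitor-like cells did (-0.16), against 0.848%.

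Microglia-like cells, of which as few as 21 came from an embryo, had the largest fold changes and the least certain. Dcx there was at 177, 260 and 290 CPM in WT, at 95.6, 116, 240 and 134 in Het and at 78.4, 21.5 and 6.17 in KO embryos, a log2 difference of -2.59 from WT. Tuba1a (-1.88), Tubb2b (-2.42), Tubb3 (-3.11) and Map1b (-2.63) were called lower too. Scaled by library size only, without TMM, the 23 upper- and deep-layer neuron markers summed to 579 to 871 CPM in these cells in WT and 245 to 300.2 in KO embryos. In erythroid-like cells they summed to 104 to 254 CPM in WT and 27.4 to 95.2 in KO embryos. Cux1, at 106 to 177 CPM, and Tle4, at 38.5 to 183, were present in the microglia-like cells of every embryo. The summed markers were thus lower in KO than in WT microglia-like cells, and their part in the tubulin values was not tested. Their lower sum in KO erythroid-like cells cannot be read as a marker difference, since the median of all genes fell there too under this scaling. Actb in microglia-like cells was at 7714, 8461 and 7641 CPM in WT and at 11870, 16110 and 13490 in KO embryos (log2 0.80), with microglia markers at 9468 to 12180 summed CPM in WT and 13310 to 17340 in KO embryos.

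The other genes of the cytoskeleton were taken from lists of 241 tubulins, actins and their binding, motor and folding proteins, of which 235 could be tested. In KO against WT, 35 were called higher and 15 lower, which is 21.3% against 24.5% of all genes, with a median log2 difference of 0.04, while that of the 10 genes was 0.17. Within 1 prefix 12 were called higher and 3 lower in KO than in Het, 6.38% against 6.14% of all genes.

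Both of the 2 other alpha tubulins tested, Tuba4a and Tuba1c, and 1 of the 3 other beta tubulins, Tubb4a, were called higher in KO than in WT and within 1 prefix, where 24.5% and 6.14% of all genes were called. Tuba4a, a low-level alpha tubulin, was at 4.6, 5.14 and 5.03 CPM in WT, 5.82, 6.45, 6.09 and 5.46 in Het and 9.27, 9.55 and 11.0 in KO embryos. All KO embryos lay above all others, and it was 1.02 higher than WT on the log2 scale and 0.70 higher than Het within 1 prefix (edgeR adjusted p = 0.0013). Tuba1c rose by 0.97 against WT and by 0.54 within 1 prefix (edgeR adjusted p = 0.0080). Tubb4a, a beta tubulin of mature neurons and oligodendrocytes, was at 110, 109 and 106 CPM in WT, 114, 127, 120.3 and 116 in Het and 143, 150.4 and 136.5 in KO embryos, higher by 0.40 than WT and by 0.25 than Het within 1 prefix (edgeR adjusted p = 0.015). For all 3 minor tubulins every KO embryo lay above every WT and Het embryo. Of 17647 genes tested, 9301 did not overlap between KO and WT in either direction, and 3574 did not between KO and Het. These 3 tubulins were named for their rise in KO against WT.

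Among motors, 11 of 42 kinesin and dynein genes were called higher and 2 lower in KO than in WT (31% against 24.5% of all genes), and 6 higher and 2 lower within 1 prefix (19% against 6.14%). Kif26b, a kinesin family member, was at 30.4, 30.7 and 30.1 CPM in WT, at 18.3, 20.2, 22.1 and 18.1 in Het and at 9.98, 8.89 and 10.5 in KO embryos. The groups did not overlap and Het replicate 4 was with the other Het embryos, and KO was 1.04 below Het within 1 prefix (log2 -1.04, edgeR adjusted p = 0.00018). Dync1i1, an intermediate chain of cytoplasmic dynein, was lower, with a log2 difference of -0.57 from WT and of -0.32 from Het within 1 prefix. Nde1 (0.62, and 0.38 within 1 prefix) and Kif11 (0.56 and 0.34), which serve the mitotic spindle, were higher, as were 12 of the 15 dividing-cell genes against WT and 7 within 1 prefix.

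Of 37 other microtubule-associated protein genes, 1 was called higher and 5 lower in KO against WT, 16.2% against 24.5% of all genes. Within 1 prefix edgeR called 0 of them between KO and Het, with 11 at an unadjusted p under 0.05. Mapt, which encodes tau, was at 1105, 1180 and 1150 CPM in WT, at 767, 871, 875 and 1068 in Het and at 749, 685 and 689 in KO embryos, a log2 difference of -0.69 from WT and of -0.24 within 1 prefix (edgeR adjusted p = 0.040, short of the fold). Nav2 (-0.45, and -0.16 within 1 prefix), Clip1, Nav3 and Map9 were lower than in WT too. Dpysl2, the collapsin response mediator of growth cones, was called higher than in WT (0.37), but differed by only -0.02 between KO and Het within 1 prefix. Of 12 stathmin and severing genes edgeR called 0 in either comparison, with 2 at an unadjusted p under 0.05 in KO against WT and 1 within 1 prefix.

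Of 43 genes of actin bundling, contraction and cortex, 11 were called higher and 1 lower in KO against WT, which is 27.9% against 24.5% of all genes, and 1 was called within 1 prefix, against 6.14%. Ezr, which encodes ezrin, was 0.56 higher than in WT and 0.31 higher than in Het within 1 prefix (edgeR adjusted p = 0.037). Tpm2, a tropomyosin, was called higher against WT (0.96) but not within 1 prefix, where its difference was 0.23 (edgeR adjusted p = 0.12), and Add2 was at -0.25 and -0.11. Of 23 actin monomer genes 3 were called higher against WT and 2 within 1 prefix. They included Cotl1, at 0.42 and 0.30 in these comparisons, while Tmsb4x was at 0.41 against WT and 0.15 within 1 prefix, and Abracl was the third called against WT.

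Of 30 nucleation and elongation genes, Actr2 was called higher in KO against WT (0.32), and Cobl (-1.42), Diaph3 (-0.41) and Wasf3 were called lower, together 13.3% against 24.5% of all genes. Within 1 prefix, where 6.14% of all genes were called, Cobl was called lower (-0.69, edgeR adjusted p = 0.046), Diaph3 was at -0.26 and missed the adjusted p, and Actr2 was at -0.00. Among the other actins and actin-related genes, Actc1 (1.65, with no embryo above 0.31 CPM) and Actl6a (0.49) were called higher against WT and Actl6b (-0.32) lower, 37.5% of the 8 tested. Within 1 prefix edgeR called 0 of these 8 genes, with 2 at an unadjusted p under 0.05, and Actl6a was at 0.21.

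Among 24 folding and modification genes, Agbl5 (0.26) and Tbcb (0.26) were called higher in KO against WT and Ttll3 (-0.49), Agtpbp1 (-0.29) and Atat1 lower, together 20.8% against 24.5% of all genes. Within 1 prefix edgeR called 0 of the 24, against 6.14%, with 7 at an unadjusted p under 0.05. The values there were 0.08 for Agbl5, -0.03 for Tbcb, 0.05 for Ttll3 and -0.17 for Agtpbp1, so the signs of Tbcb and Ttll3 turned. Of the gamma, delta and epsilon tubulin group only Tubd1 was called against WT (0.41), and it was at 0.16 within 1 prefix. Wasf3, Abracl, Clip1, Nav3, Map9 and Atat1 were named after their values were seen.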

How the data were processed

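Single-cell libraries of 10 embryonic cortices (3 WT, 4 Het, 3 KO) were made by the authors with the 10X Genomics 3′ v3 kit and aligned to mm10. The deposited matrices hold raw UMI counts per gene and barcode, written by Cell Ranger 6.0.2 per the file headers, while the methods name an earlier release. The 10 genes and all lists were chosen with earlier results of these data known. Barcodes with 1000 UMIs or more, of which no more than 10% were mitochondrial, were clustered with Seurat 5.3.0 (2000 variable genes without the cytoskeletal genes, 30 principal components, resolution 0.4). The libraries were integrated over embryos by reciprocal principal component analysis before clustering. Clusters were named from marker lists with a score of at least 0.5 and at least 3 detected markers, and clusters with Mki67 in at least 50% of cells and at most 1 marker of their name among the 10 leading genes were called dividing. Doublets were kept. Scrublet alone marked 0.0341% to 2.53% of cells, so the highest-scoring 4.80% to 8.31% were left out in an alternative.

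Counts were summed per embryo, over all cells or per class (20 or more cells in each embryo), and tested with edgeR 4.0.16 (TMM, quasi-likelihood, all 10 embryos in 1 fit, Benjamini-Hochberg over all genes). Summed libraries of 82872641 to 123737385 UMIs leave counting error small beside the spread between embryos over all cells. In simulations with the fitted spread, recovery was lowest in microglia-like, endothelial-like and erythroid-like cells. A simulated log2 change of 1 was recovered in 0% of genes in the first 2, and in at most 11% in the last. The spread between embryos was wide in endothelial-like cells, where Tuba1a was at 1350, 5536 and 1838 CPM in WT. In a simulation over all cells, 95% of genes changed by 0.5 were recovered in KO against WT. Each simulated Het change was 0.5 times that of KO. Het against WT then gave 32% for a KO change of 0.5 and 96% for a KO change of 1. KO against Het gave 38% and 97%. In radial glia-like, intermediate progenitor-like, interneuron-like and Cajal-Retzius-like cells KO against Het gave 2% to 7% and 34% to 71%. For a KO change of 0.5, KO against WT gave 40% in radial glia-like and 35% in Cajal-Retzius-like cells. A gene not called in these comparisons may therefore still differ. Shares within a family were compared with exact two-sided permutation tests. Alternatives used DESeq2 1.42.0, limma 3.58.1, other filters, clusterings and scalings, the prefix as a covariate, fits within 1 prefix, a replicate block and each embryo left out. All 10 members are named. Other cytoskeletal genes were named as the up to 2 largest rises and 2 largest falls per list among genes called in KO against WT, and 3 like genes per member by r among genes of at least 10 CPM. Same-numbered embryos had correlations of -0.618 to 0.143 in their deviations from the group means, and nothing stated that a number marks a litter, so the numbers were not used as pairs. Sequences were read from GRCm38 and RefSeq promoter windows. A like gene and some coding sequence are not reported here.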

Additional observations from a re-analysis of the deposited data

Results flagged for a closer look

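The share of Tubb3 in beta tubulin UMIs was 18.49% in Het replicate 4 and 15.2% to 15.8% in the other 3 Het embryos, a gap of 0.8405 of the whole range, above Dixon's critical value for 4 samples. Of 14 sets of Het values examined this way, 1 stood out, and chance gives about 1 in 20. Het replicate 4 shares its library prefix with the WT embryos.

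The genotype difference of several genes was not of 1 size in all classes. It was compared with that of upper-layer-like neurons in 60 tests over 3 classes and the KO to WT and Het to WT comparisons, and in 40 tests over 4 classes within 1 prefix, in fits over all genes with adjusted p under 0.05. Between KO and WT the radial glia-like difference minus the upper-layer-like one was -0.791 for Dcx, -0.1615 for Actb, 0.5189 for Tuba1b and -0.2626 for Tuba1a on the log2 scale, where 18.2% of all genes differed. The intermediate progenitor-like values were -0.2881 for Actb, 0.3845 for Tubb3, -0.247 for Tubb2a and 0.2478 for Map1b, with 9.33% of all genes. Interneuron-like cells gave 0.3133 for Tubb3, 0.6009 for Tubb2a, 0.217 for Tubb2b, 0.2011 for Tuba1b and 0.2083 for Tuba1a, with 6.9% of all genes. Between Het and WT only Actb in intermediate progenitor-like cells differed, by -0.1552, with 0.848% of all genes.

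Within 1 prefix, KO against Het replicates 1 to 3 gave a difference for Tubb3 that was higher by 0.4464 in intermediate progenitor-like cells than in upper-layer-like neurons, and Map1b (0.3218), Tubb2b (0.2187), Tuba1a (0.1668), Tubb5 (0.1343) and Actb (-0.1192) differed there as well, against 3.64% of all genes. In radial glia-like cells the values were -0.4625 for Dcx, 0.3206 for Tuba1b and -0.1263 for Actb, against 6.81%. In interneuron-like cells they were 0.2278 for Tubb3 and 0.4625 for Tubb2a, against 2.86%, and in Cajal-Retzius-like neurons 0.3592 for Dcx and 0.2477 for Tubb3, against 2.22%. The fits within 1 prefix were chosen after seeing the data. The mix of clusters moved with genotype in the radial glia-like class and in the upper-layer-like reference class. Within the radial glia-like clusters 15 and 21, KO differed from Het replicates 1 to 3 by -0.02 and 0.08 for Dcx, by 0.11 and -0.01 for Tuba1b and by -0.06 and 0.13 for Actb. Within the upper-layer-like clusters 0 and 1 the Tubb2a difference was -0.22 and -0.23, against -0.39 in the class, and that of Tubb3 was -0.13 and 0.03. The part of the mix in the differences between classes was not tested.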

How the results depend on the processing

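Over 55 results and 1026 alternative values, 924 kept their direction and side of the threshold or stayed within the stated spread, 35 changed sign, 21 fell short of a call, 15 became calls and 31 moved. The alternatives that tie KO to Het embryos or WT to Het replicate 4 within 1 prefix, the equal weighting of classes in the Het comparisons, the fits per cluster and the library-size-only counts per class were chosen after seeing the data. The causes of the changes were not tested.

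For the number of the 10 genes called over all cells, Het against WT gave 0, with 1 by DESeq2, 2 with the replicate block and 0 to 2 when each embryo was left out, the 2 without Het replicate 4. KO against WT gave 3, with 1 under equal weight of classes and 0 with the prefix covariate. For pairs of gene and class, Het against WT gave 3, with 0 under the prefix covariate, 16 with the replicate block, 1 at resolution 0.8, 0 within 1 prefix and 1 to 13 when each embryo was left out. KO against WT gave 28 pairs, with 35 by library size only (12 higher and 23 lower, against 16 and 12), 6 under the prefix covariate and 14 to 30 with embryos left out. KO against Het gave 2 pairs, with 1 when cytoskeletal genes were kept in the clustering, 4 with the prefix covariate, 6 with library size only, 4 with the replicate block, 5 within 1 prefix and 0 to 4 with embryos left out. The replicate block drops Het replicate 4 in effect, since no other group has a replicate 4, and the numbers did not pair the embryos.

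The sign changes of Het against WT over all cells were as follows. With the prefix covariate and within 1 prefix the log2 differences were -0.1076 and -0.1086 for Tuba1a, -0.09792 and -0.09884 for Tuba1b, -0.1003 and -0.1014 for Tubb2a, -0.003717 and -0.004991 for Actb, 0.06986 and 0.0687 for Map1b, and -0.06854 and -0.06977 for Tubb2b. Tubb2b was also -0.01892 with library size only, -0.0458 at up to 5% mitochondrial UMIs, -0.003782 without WT replicate 1 and -0.01613 without Het replicate 2, with 0.04798 the highest value when each embryo was left out. With equal weight of classes Tubb2a was -0.03122 and Map1b 0.009361. In KO against WT the prefix covariate gave -0.1701 for Tuba1a, -0.07929 for Tuba1b, -0.002317 for Actb and 0.06206 for Map1b, and equal weight gave 0.01064 for Map1b. In KO against Het, Tuba1a was -0.0654 with the replicate block, -0.06254 with the prefix covariate, -0.002897 at up to 5% mitochondrial UMIs, -0.06263 without Het replicate 4, -0.04892 without KO replicate 2 (up to 0.06235 without others) and -0.06273 within 1 prefix, Tubb5 was -0.004742 without KO replicate 2 (up to 0.08151), and Map1b was 0.001283 with equal weight. The Actb share of both actins changed by -1.488 points between Het and WT within 1 prefix, and by -0.8597 between KO and Het without Het replicate 4 or within 1 prefix, with 1.291 the highest without another embryo. The Tubb3 share of beta tubulin changed by 0.1198 points between Het and WT within 1 prefix.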
